A study of Mus musculus with 4 samples.

Results

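Complement is a cascade of plasma and tissue proteins that tags damaged cells and recruits phagocytes. The genes described here are 9 complement components, receptors and regulators, C1qa, C1qb, C1qc, C1ra, C4b, C3, C3ar1, C5ar1 and Serping1, chosen by symbol among the 32285 genes of the feature list. All 9 were found and all 9 had at least 100 UMIs (unique molecular identifiers, 1 per captured transcript), the minimum for a gene to be tested. They were measured with Visium spatial transcriptomics, in which mRNA of a tissue section is caught on barcoded spots that each cover a few cells of one or more types. The 4 sections came from hearts of female ICR mice 12 weeks of age, 1 mouse each at days 1, 4, 7 and 14 after permanent ligation of the left anterior descending coronary artery (myocardial infarction, MI). All mice carried the ligation, and no sham-operated heart was analysed here. With 1 mouse per day, the day and the mouse cannot be told apart, and no test between days was made.

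The classical pathway starts with C1, in which the C1q molecule (chains encoded by C1qa, C1qb and C1qc) recognises its target and the proteases C1r and C1s then cleave C4 and C2. The cleavage of C3, on which all pathways converge, yields C3b, which coats surfaces, and the small peptide C3a. C3a and C5a signal through their receptors C3aR1 and C5aR1 on myeloid cells. Serping1 encodes the C1 inhibitor, which blocks C1r and C1s. The liver makes most plasma C3 and C4, whereas C1q is known mainly as a product of macrophages and other myeloid cells, and fibroblasts can make C1r, C1s, C3 and the C1 inhibitor.

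The 3 C1q genes lie side by side on chromosome 4 (GRCm38), C1qb at 136880129 to 136886187, C1qc at 136889804 to 136893065 and C1qa at 136895917 to 136898803, all on the minus strand. C3 lies on chromosome 17 at 57203970 to 57228136 on the minus strand. The promoters of C1qb, C1qc and C3 are shown because C1qb and C1qc shared one pattern over the sections while C3 departed from it. Each window runs 5′ to 3′ from 250 bases before to 50 bases after the transcription start (RefSeq, GRCm38.p6). In the C1q windows capitals mark the core GAGGAA bound by PU.1, a transcription factor of myeloid cells, searched on both strands. In the C3 window they mark TTGCNNAA, a core bound by the C/EBP factors, which act in liver and in inflammation.
C1qb (chr4:136886151-136886450, minus strand): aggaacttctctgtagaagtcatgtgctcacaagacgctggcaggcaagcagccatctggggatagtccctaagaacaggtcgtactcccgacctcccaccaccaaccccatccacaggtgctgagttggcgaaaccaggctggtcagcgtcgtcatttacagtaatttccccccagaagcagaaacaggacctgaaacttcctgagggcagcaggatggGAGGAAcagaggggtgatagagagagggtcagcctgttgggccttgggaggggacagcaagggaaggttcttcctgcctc
C1qc (chr4:136892865-136893164, minus strand): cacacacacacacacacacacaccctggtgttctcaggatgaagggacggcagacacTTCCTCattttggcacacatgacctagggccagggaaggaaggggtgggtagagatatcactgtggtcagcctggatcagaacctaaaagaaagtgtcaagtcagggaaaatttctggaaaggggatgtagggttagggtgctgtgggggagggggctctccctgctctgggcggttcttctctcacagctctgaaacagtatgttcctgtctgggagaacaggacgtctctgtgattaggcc
C3 (chr17:57228087-57228386, minus strand): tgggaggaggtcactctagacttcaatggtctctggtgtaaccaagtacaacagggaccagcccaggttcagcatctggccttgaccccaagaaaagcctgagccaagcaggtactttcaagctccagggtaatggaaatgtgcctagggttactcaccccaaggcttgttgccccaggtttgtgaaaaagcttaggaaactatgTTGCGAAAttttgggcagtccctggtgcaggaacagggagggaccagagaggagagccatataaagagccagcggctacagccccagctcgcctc
Of the 9 genes, 6 had a promoter in the table used (C1qb, C1qc, C1ra, C3, C3ar1 and C5ar1). GAGGAA was found in 3 of these 6 (C1qb, C1qc and C1ra), and 28.3% of all 32851 promoters of this length hold it. TTGCNNAA was found in 2 of 6 (C1ra and C3), against 10.8% of all promoters. No motif overlapped another, and these matches describe letters in a window and not sites in use.

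Spots with over 1% of UMIs from 8 hemoglobin genes were removed, which kept 7503 of 9102 spots and 9292678 to 15713779 UMIs per section. The remaining spots of each section were ranked on the share of UMIs from Myh6 and Myl2, both cardiomyocyte sarcomere genes, and cut into 4 groups of equal size. Group 1, the lowest in this share, is called the myocyte-poor spots and group 4 the myocyte-rich spots. Levels are given as CPM, the UMIs of a gene per 1000000 UMIs of the same spots. The myocyte-poor spots held 1470333 to 2758599 UMIs per section. They were not the same kind of tissue on every day. Their median Myh6 and Myl2 share was 0.755%, 0.154%, 0.200% and 1.01% in the order of days, against 2.53% to 2.78% in the myocyte-rich spots. In the day 7 section 115 of the 462 myocyte-poor spots held fast skeletal muscle mRNA, and in the day 14 section 141 of 522 had under 1000 UMIs. Any 2 sections shared 1572 to 1918 barcodes, since every slide carries the same set. Fewer cells of a type and less RNA per cell cannot be told apart in a spot.

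In CPM, C1q, C4b and both anaphylatoxin receptors were higher in the spots poorest in cardiomyocyte mRNA in all 4 hearts. On day 1 the log2 ratios of the C1q genes and C4b were only 0.51 to 0.84, against a median of 0.52 over all genes. Those of C3ar1 and C5ar1 were 2.77 and 2.70. C3, C1ra and Serping1 were higher there on days 4, 7 and 14 but not on day 1. For C3 on day 4 the log2 ratio was 0.56, below the median of 1.01 over all genes. In the edgeR quasi-likelihood test over 16 libraries (4 sections by 4 groups of spots, with the section as a block), 6 of the 9 genes were higher in the myocyte-poor than in the myocyte-rich spots at an adjusted p under 0.05 and 0 were lower, where 27.6% of 11621 genes tested were called higher and 25% lower. The median log2 fold change was 1.59 over the 9 genes and 0.07 over all genes tested. These fold changes are scaled by TMM factors. In CPM, the scale used for single sections, all genes together were shifted toward the myocyte-poor spots, by median log2 ratios of 0.52, 1.01, 0.82 and 0.34 in the order of days. The same 6 genes were the ones higher in all 4 sections in CPM, as were 54.1% of all genes tested. With total UMIs in place of TMM the share of called genes that were higher went from 52.4% to 84.7% and all 9 genes were called higher. Without the day 1 section all 9 were also called, and without the day 4, 7 or 14 section 6, 6 and 5 were.

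**Figure D1:**
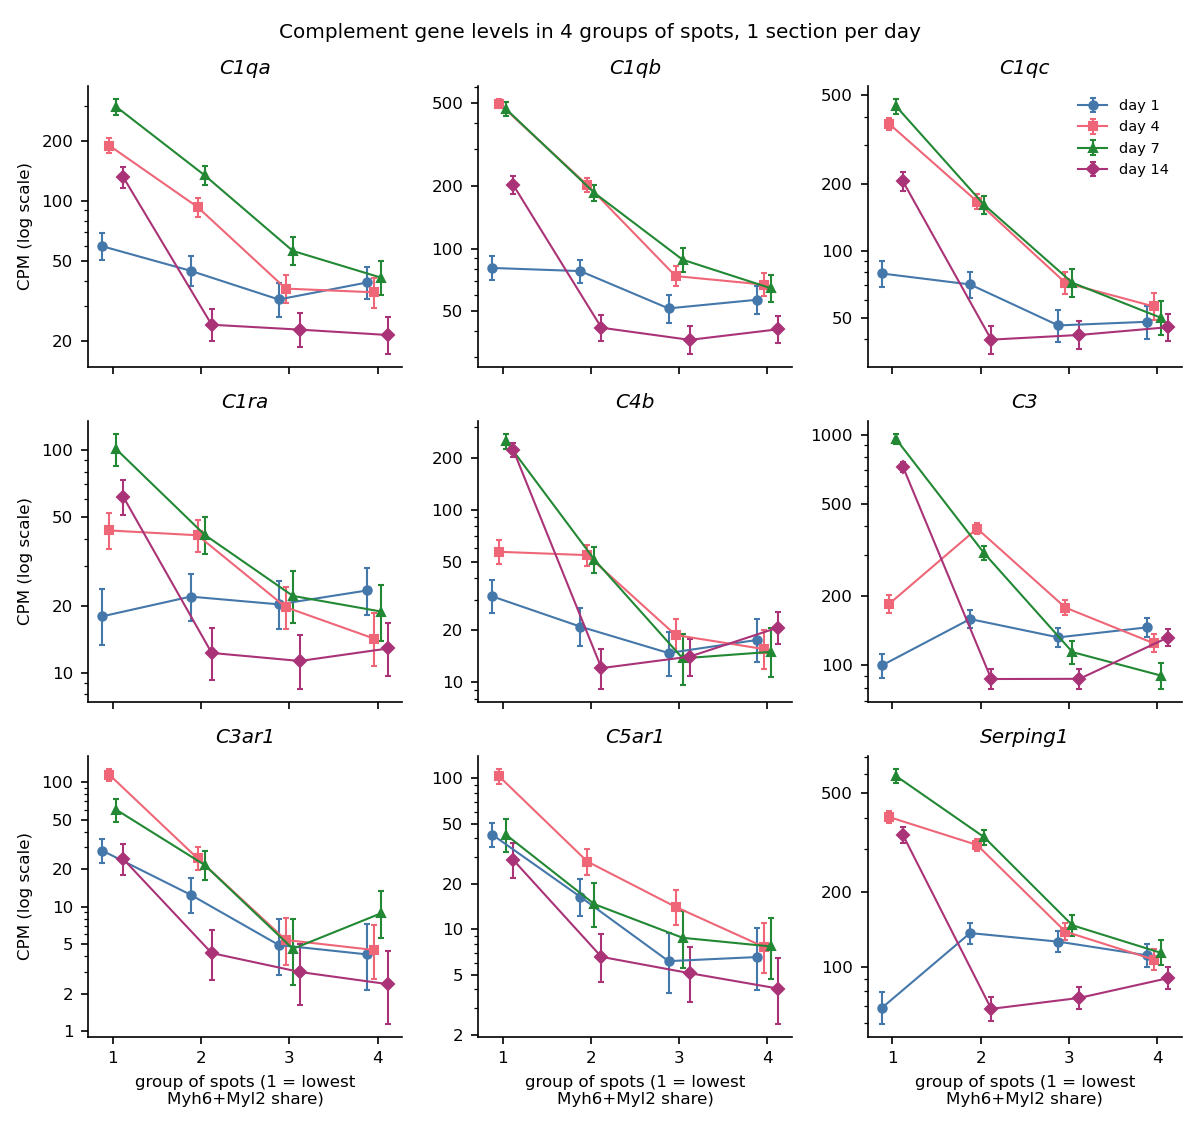
Level of each of the 9 genes in CPM (log axis, a separate range in each panel) against the group of spots, group 1 being the lowest in Myh6 and Myl2 share. Each point is the sum over the spots of 1 section and each bar its exact Poisson 95% interval. On days 4, 7 and 14 levels were highest in group 1 for each gene but C3 on day 4, which was highest in group 2 at 391.5. For C4b and C1ra on day 4 the intervals of groups 1 and 2 overlapped. On day 1 C3, Serping1 and C1ra were not highest in group 1.

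The C1q chains moved as a group. C1qb stood at 80.8, 499, 469 and 202 CPM in the myocyte-poor spots on days 1, 4, 7 and 14. In the myocyte-rich spots it stood at 56.8, 67.2, 64.5 and 40.9. The groups did not overlap, and the day 1 section lay closest to the myocyte-rich spots. The share of all genes without such overlap was not counted, and 54.1% were higher in the myocyte-poor spots of all 4 sections. The C1qb ratio of myocyte-poor to myocyte-rich spots was 1.42 on day 1 (exact 95% interval 1.16 to 1.75) and 7.43 on day 4 (6.49 to 8.52). C1qa stood at 59.6, 190.0, 297 and 131 CPM in the myocyte-poor spots, against 39.2, 35.0, 41.5 and 21.4 in the myocyte-rich spots. C1qc stood at 78.9, 373, 448 and 205 against 47.8, 56.1, 49.9 and 45.2. Each chain was thus higher in CPM in the myocyte-poor spots of every section and least so on day 1. The day 1 log2 ratios were 0.60 for C1qa, 0.51 for C1qb and 0.72 for C1qc. The median over all genes in that section was 0.52, so the chains stood close to it on day 1. The log2 fold changes were 1.55 ± 0.31 (SE) for C1qa, 1.59 ± 0.31 for C1qb and 1.63 ± 0.30 for C1qc over 4 sections, with edgeR adjusted p of 0.000776, 0.000544 and 0.000458.

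The share of each chain in the summed C1q UMIs moved little over a range of levels of several fold. Over the 16 libraries C1qa made up 17.9% to 28.0% of C1q UMIs (median 23.8%), C1qb 36.1% to 47.0% (median 39.6%) and C1qc 32.0% to 42.0% (median 36.0%). The day 4 and day 14 sections differed from the others beyond counting error. On day 4 C1qa made up 19.2% (exact binomial 95% interval 18.3% to 20.3%) of 5938 C1q UMIs and C1qb 44.8% (43.5% to 46.1%), against 25.6% and 39.0% on day 1 and 26.0% and 39.2% on day 7. On day 14 C1qc made up 39.3% (37.4% to 41.2%), against 34.8% to 36.0% on the other days, and C1qa 23.0%. These intervals cover counting error and not the spread between mice.

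**Figure D2:**
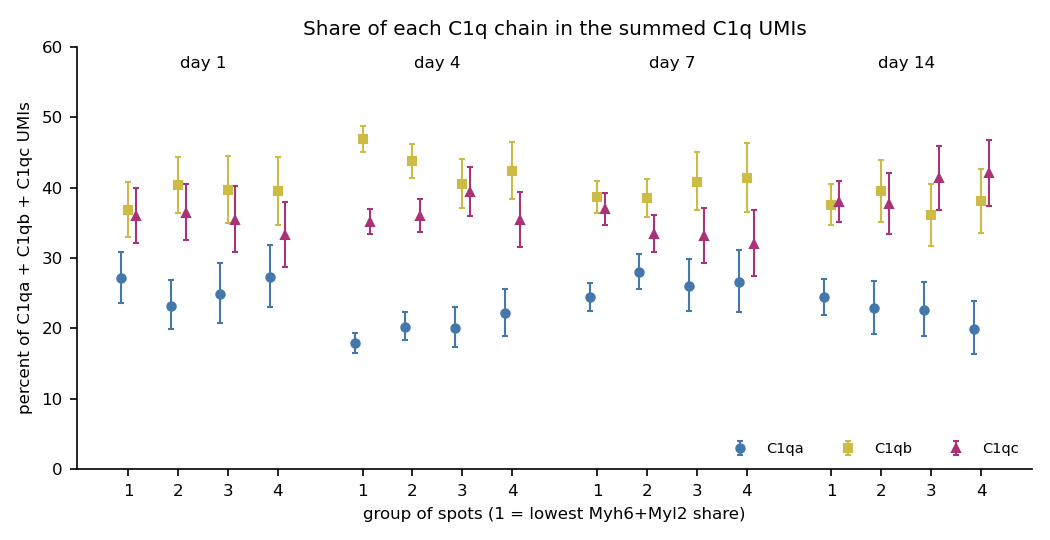
Percent of the summed C1qa, C1qb and C1qc UMIs that each chain contributed, for the 4 groups of spots of each section. Points are single libraries with exact binomial 95% intervals, and C1qa was lowest and C1qb highest in the myocyte-poor spots of the day 4 section (17.9% and 47.0%).

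C4b, which encodes complement C4, showed its steepest gradients late. It stood at 31.4, 56.9, 248 and 222 CPM in the myocyte-poor spots on days 1, 4, 7 and 14, and at 17.5, 15.5, 15.0 and 20.7 in the myocyte-rich spots. The groups did not overlap. The share of all genes for which this held was not counted, and 54.1% were higher in CPM in the myocyte-poor spots of all 4 sections. The ratio of myocyte-poor to myocyte-rich spots was 1.79 (1.25 to 2.58) on day 1 and 3.66 (2.70 to 5.03) on day 4. It was 16.6 (11.9 to 23.7) for the day 7 section and 10.7 (8.50 to 13.6) for that of day 14. The fold change was 2.22 ± 0.61 on the log2 scale (edgeR adjusted p = 0.00876), and without the day 14 section it no longer passed (adjusted p = 0.0526). C4a is a near-identical copy of C4b close by on chromosome 17, so reads assigned to either are uncertain.

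C1ra, which encodes the protease C1r, stood at 17.9, 43.5, 101 and 61.4 CPM in the myocyte-poor spots and at 23.4, 14.2, 18.8 and 12.8 in the myocyte-rich spots. The groups overlapped through the day 1 section, whose ratio was 0.77 (0.52 to 1.12). The ratios of the later days were 3.06, 5.35 and 4.78. The difference missed the threshold (log2 fold change 0.98 ± 0.42, edgeR adjusted p = 0.0674) and passed it without the day 1 section (1.46 ± 0.36, adjusted p = 0.00552). With the day 4, 7 or 14 section left out instead, C1ra did not pass (edgeR adjusted p = 0.125, 0.259 and 0.288). C1rb, a copy of C1ra close by on chromosome 6, may share reads with it.

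C3 had the least uniform pattern. It stood at 99.8, 184, 958 and 725 CPM in the myocyte-poor spots on days 1, 4, 7 and 14, and at 146, 125, 90.2 and 132 in the myocyte-rich spots. The day 1 section was low in the myocyte-poor spots (ratio 0.68, 0.59 to 0.80) and the day 4 section slightly high in CPM (1.48, 1.3 to 1.68). That day 4 log2 ratio of 0.56 lay below the median of 1.01 over all genes of the section. The day 7 and 14 sections were far higher (10.6, 9.24 to 12.2, and 5.50, 4.98 to 6.07). On day 4 C3 was highest not in the myocyte-poor spots but in group 2, at 391.5 CPM. In CPM all the other 8 genes were below their own level in the myocyte-poor spots there. For C4b (54.4 against 56.9) and C1ra (41.4 against 43.5) the counting intervals of both groups overlapped. The myocyte-poor spots held 16.3% of all C3 UMIs of the day 4 section and 16.9% on day 1, against 51.5% on day 7 and 52.3% on day 14. The test over sections did not pass (log2 fold change 1.28 ± 0.66, edgeR adjusted p = 0.121), and without the day 1 section it did (1.83 ± 0.64, adjusted p = 0.0333). With the day 4, 7 or 14 section left out instead, C3 did not pass (edgeR adjusted p = 0.121, 0.459 and 0.490).

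The receptors had the strongest contrasts of the 9 genes in the test. C3ar1, the receptor of C3a, stood at 28.1, 115, 59.9 and 24.0 CPM in the myocyte-poor spots and at 4.13, 4.48, 8.83 and 2.38 in the myocyte-rich spots, the latter resting on 10 to 23 UMIs per section. C5ar1, the receptor of C5a, stood at 42.4, 103, 42.2 and 28.8 against 6.54, 7.64, 7.68 and 4.04. For both, every value of the myocyte-poor spots lay above every value of the myocyte-rich spots, the day 1 section included. How many of all genes were separated in this way was not counted, and 54.1% were higher in CPM in the myocyte-poor spots of all 4 sections. The ratio for C3ar1 was 6.82 (3.69 to 13.8) on day 1 and 25.6 (15.7 to 44.5) on day 4, and that for C5ar1 was 6.48 (3.97 to 11.2) and 13.5 (9.18 to 20.5). The log2 fold changes were 2.77 ± 0.27 for C3ar1 (edgeR adjusted p = 3.47e-06) and 2.34 ± 0.19 for C5ar1 (adjusted p = 9.61e-07).

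Serping1 stood at 68.7, 402, 588 and 339.7 CPM in the myocyte-poor spots on days 1, 4, 7 and 14, and at 112, 107, 114 and 90.4 in the myocyte-rich spots. On day 1 the myocyte-poor spots had the lowest level of the section (ratio 0.61, 0.51 to 0.74), and on the later days they had 3.74, 5.14 and 3.76 times the level of the myocyte-rich spots. The log2 fold change was 0.94 ± 0.44 and did not pass (edgeR adjusted p = 0.0890), and without the day 1 section it did (1.40 ± 0.33, adjusted p = 0.00445). With the day 4, 7 or 14 section left out instead, Serping1 did not pass (edgeR adjusted p = 0.248, 0.295 and 0.304). A gene lower in the myocyte-poor spots on day 1 and higher on the other 3 days, as were C3, Serping1 and C1ra, accounted for 7.82% of all genes tested.

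**Figure D3:**
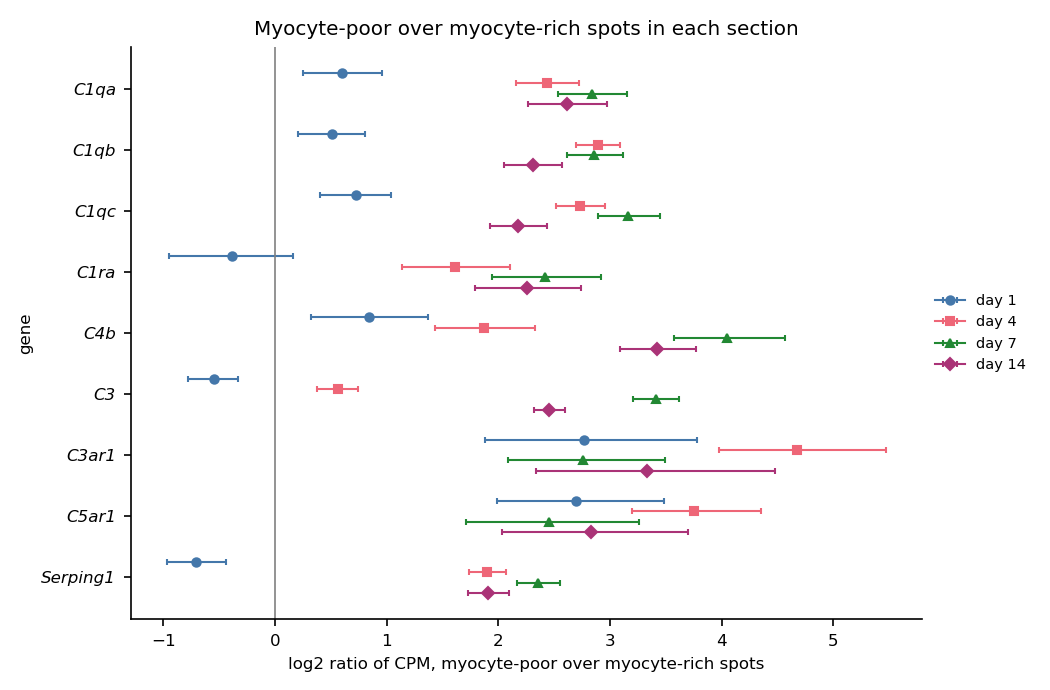
Log2 ratio of CPM in the myocyte-poor over the myocyte-rich spots, for each gene in each section, with exact 95% intervals from counting. On day 1, 6 of 9 genes lay above 0, C3 and Serping1 lay below it and the interval of C1ra held it, and on days 4, 7 and 14 all 9 lay above 0.

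Counted per section in CPM, 6 of 9 genes were higher in the myocyte-poor spots on day 1 and 9 of 9 on each of days 4, 7 and 14, against 70.6%, 79.1%, 76% and 71.9% of all genes tested. At least 2-fold higher were 2 of 9 on day 1, 8 of 9 on day 4 and 9 of 9 on days 7 and 14, against 30.1%, 50.5%, 42.6% and 21.2% of all genes. The share of spots with at least 1 UMI gave the same order after each spot was thinned to 1300 UMIs. C1qb was then seen in 12.4%, 43.6%, 42.2% and 26.1% of myocyte-poor spots and in 8.32%, 11.5%, 6.51% and 5.11% of myocyte-rich spots. Serping1 was seen in 6.67% of myocyte-poor and 12.6% of myocyte-rich spots on day 1 and in 51.8% and 11.7% on day 7. Thinning left out 7 to 181 myocyte-poor and 1 to 12 myocyte-rich spots per section, and without it the shares for Serping1 were 25.6% and 44.7% on day 1 and 68.6% and 43.9% on day 7.

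By day, the levels in the myocyte-poor spots peaked on day 4 or day 7. C1qb, C3ar1 and C5ar1 were highest on day 4, and C1qa, C1qc, C4b, C3, Serping1 and C1ra on day 7, where 36.8% and 33.1% of all genes tested were highest on these days. Neighbouring days within counting error of each other were days 4 and 7 for C1qb (ratio 1.06), days 7 and 14 for C4b (1.12), days 1 and 14 for C3ar1 (1.17) and days 1 and 7 for C5ar1 (1.01). All other neighbours in these orders differed beyond counting error. From day 1 to day 4, 7 of the 9 genes (all but C3 and C4b) were at least 2-fold higher, as were 18.6% of all genes, and 3 of 9 (C1qb, C3ar1 and C5ar1) were at least 2-fold higher on day 4 than on day 14, as were 32.6%. C3 and C4b were 3.93 and 3.90 times higher on day 14 than on day 4, while C3ar1 and C5ar1 on day 14 were at or below their day 1 levels. In the myocyte-rich spots C1qa was lowest on day 14, by a ratio of 1.64 (1.24 to 2.16) to the next lowest day, and C1ra on day 4 was at 0.61 (0.42 to 0.88) times its day 1 level.

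The order of days depended on how much of the section was counted. In the day 14 section the 9 genes were concentrated in the first of 10 equal groups of ranked spots. In these 209 spots C3 stood at 3719 CPM (3506 to 3942), C4b at 1231 (1109.7 to 1362), Serping1 at 1404 (1275 to 1544), C1qb at 913 (809 to 1027), C3ar1 at 124 and C5ar1 at 124. In the next of the 10 groups C3 stood at 311, C4b at 85.2, Serping1 at 228, C1qb at 115, C3ar1 at 9.21 and C5ar1 at 18.4. In the day 7 section 115 of the 462 myocyte-poor spots held fast skeletal muscle mRNA, and their part in the 10 groups was not tested. No such fall from the first group to the next was seen in that section. C3 stood at 837 (771 to 908) in the first group and 1030 (944 to 1121) in the next, C4b at 192 (161 to 227) and 291 (247 to 342), and C1qb at 431 and 511 with intervals that overlapped. Over the first of the 10 groups alone, 7 of the 9 genes were highest on day 14 and C3ar1 and C5ar1 on day 4. These day 14 spots were shallow, with a median of 1140 UMIs per spot against 3442 to 6100 in the other sections, and macrophage and fibroblast markers were also concentrated there, at 6607 and 39673 CPM against 724 and 7602 in the next group.

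**Figure D4:**
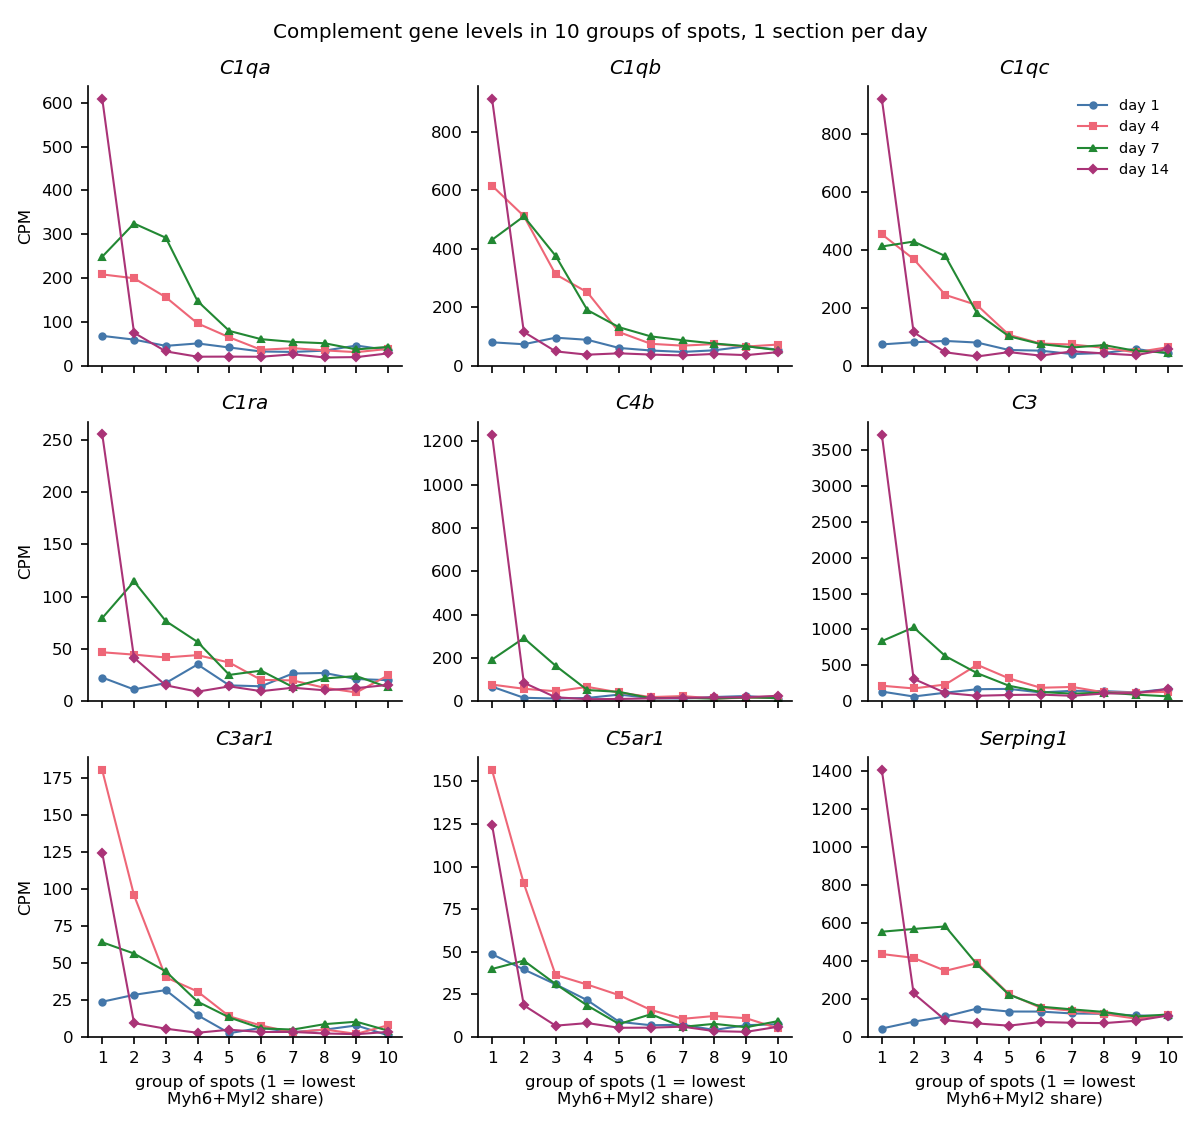
Level of each gene in CPM (linear axis from 0, a separate range in each panel) in 10 equal groups of the spots of each section, group 1 being the lowest in Myh6 and Myl2 share. In the day 14 section each gene fell steeply from group 1 to group 2. In the day 7 section 8 of the 9 genes had a higher value in group 2 than in group 1, but only for C3 and C4b did the counting intervals not overlap. C3 on day 4 peaked in group 4 at 507.

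Markers of other cells moved with these differences. In the myocyte-poor spots 9 macrophage markers summed to 1013, 5954, 4007 and 1394 CPM on days 1, 4, 7 and 14, against 259 to 388 in the myocyte-rich spots, and 9 of 9 were called higher. Fibroblast markers (8 genes) summed to 2672 on day 1, below the 3346 of the myocyte-rich spots of that section. The single markers differed in direction on that day. Gsn (499 against 2194) and Dcn (286 against 533) were lower in the myocyte-poor spots, as were Lum (146 against 148) and Pdgfrl (1.83 against 4.13). Col1a1 (347 against 82.9), Col1a2 (521 against 130), Col3a1 (794 against 229) and Pdgfra (74.9 against 26.5) were higher there. On the other days the 8 markers summed to 10168 to 37926, against 2666 to 3758. In the test over sections 6 were called higher, Gsn lower and Dcn not called. Neutrophil markers summed to 399, 70.0, 74.1 and 162 CPM in the myocyte-poor spots and 4.04 to 17.2 in the myocyte-rich spots. Hepatocyte markers summed to at most 2.04 CPM in any library, which says nothing about complement protein that reaches the heart from the liver. Of the macrophage markers only Cx3cr1 was at 0 in a library, the myocyte-rich spots of day 4. The part of cell composition in the levels of the 9 genes was not tested.

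Set against marker UMIs, the order of days depended on the markers counted. Per 100 macrophage marker UMIs of the myocyte-poor spots, C1qb gave 7.97, 8.38, 11.7 and 14.5 UMIs on days 1, 4, 7 and 14, and C1qc 7.79, 6.27, 11.2 and 14.7. C1qa gave 5.88, 3.19, 7.40 and 9.43, so that all 3 chains had their highest value on day 14. C5ar1 gave 4.18, 1.73, 1.05 and 2.06 and C3ar1 2.78, 1.92, 1.49 and 1.72, both highest on day 1. Lyz2, a lysozyme gene that monocytes and neutrophils also express, made up 66.7%, 83.0%, 83.3% and 78.1% of these marker UMIs. Per 100 UMIs of the other 8 markers, a setting added after the data had been seen, C1qb gave 23.9, 49.2, 70.2 and 66.2 and C5ar1 12.6, 10.2, 6.32 and 9.42. C3ar1 gave 8.33, 11.3, 8.97 and 7.85. The C1q chains then had their highest value on day 7, within counting error of day 14, and C3ar1 on day 4. Neutrophil markers were highest on day 1, and their part in the receptor values was not tested. Per 100 fibroblast marker UMIs, C3 gave 3.73, 0.532, 2.53 and 7.13, C4b 1.18, 0.164, 0.655 and 2.18, Serping1 2.57, 1.16, 1.55 and 3.34, and C1ra 0.670, 0.126, 0.265 and 0.604. All 4 were lowest on day 4, and C3, C4b and Serping1 were highest on day 14. The collagen genes Col1a1, Col1a2 and Col3a1 made up 62.2%, 93.0%, 89.1% and 67.0% of the fibroblast marker UMIs, the most on day 4. Per 100 UMIs of the other 5 fibroblast markers, C3 gave 9.89, 7.65, 23.2 and 21.6 and C4b 3.11, 2.36, 6.01 and 6.62, both still lowest on day 4. Serping1 gave 6.81, 16.7, 14.2 and 10.1, with its highest value on day 4. The mix of these 5 markers also differed between days. In the myocyte-poor spots Gsn stood at 499, 317, 578 and 1373 CPM and Dcn at 286, 1080, 1800 and 1269 in the order of days. Values without Gsn were not computed.

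Within the myocyte-poor spots, those with at least 10 UMIs of both marker lists added together were ranked on the macrophage part of these UMIs. They were split at the middle of each section. The macrophage part was 13.3%, 8.75%, 4.03% and 4.81% in the fibroblast-rich spots on days 1, 4, 7 and 14, and 43.6%, 21.4%, 14.5% and 18.0% in the macrophage-rich spots. No complement gene was in either list. The name fibroblast-rich refers to this ratio and not to a higher fibroblast level. In the edgeR test 8 of 9 macrophage markers were called higher in the macrophage-rich spots. Of the 8 fibroblast markers 2 were called lower there (Gsn and Lum), and Col1a1, Col1a2 and Col3a1 were not called. On day 14 fibroblast markers held 10250 of 922377 UMIs in the fibroblast-rich and 10687 of 951366 in the macrophage-rich spots. Lyz2 made up 81.0% of the macrophage marker UMIs of these spots and the 3 collagen genes 87.6% of the fibroblast marker UMIs, so the ranking rested mainly on these. Cardiomyocyte markers also moved, with 3 of 7 lower in the macrophage-rich spots (Tnnt2, Tnni3 and Atp2a2, by log2 fold changes of -0.62 to -0.48). Of the neutrophil markers 0 of 3 tested passed, and S100a8 had a log2 fold change of 1.12 (edgeR adjusted p = 0.0867), with a higher value in 4 of 4 sections. The part of these cells in the differences was not tested. C1q, both receptors and C4b were higher in the macrophage-rich spots of every section, while Serping1 and C1ra did not pass the test. In edgeR with the section as a block, 6 of the 9 genes were called higher and 0 lower, against 2.8% and 0.957% of 8359 genes tested. The median log2 fold change was 0.61 over the 9 genes and -0.03 over all genes.

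C4b stood at 23.5, 34.0, 164 and 123 CPM in the fibroblast-rich spots and at 34.3, 85.5, 315 and 363 in the macrophage-rich spots. It was higher in the macrophage-rich spots of each section, and on day 1 the interval of the ratio held 1 (1.46, 0.88 to 2.44). Its log2 fold change was 1.11 ± 0.14 (edgeR adjusted p = 2.67e-05). C3ar1 and C5ar1 differed by 1.14 ± 0.16 (adjusted p = 8.11e-05) and 1.04 ± 0.15 (adjusted p = 0.000106). C1qa, C1qb and C1qc differed by 0.61 ± 0.13, 0.56 ± 0.11 and 0.74 ± 0.12 (edgeR adjusted p = 0.00652, 0.00393 and 0.000260), and C1qa passed in 9 of the 13 fits run. C3 stood at 124, 149, 609 and 474 CPM in the fibroblast-rich spots and at 77.2, 228, 1233 and 1108 in the macrophage-rich spots. It was lower in the macrophage-rich spots on day 1 (ratio 0.62, 0.47 to 0.81) and higher on the other days. C3 did not pass over the 4 sections (0.58 ± 0.31, edgeR adjusted p = 0.466) but did without the day 1 section (0.90 ± 0.14, adjusted p = 0.000906). With the day 4, 7 or 14 section left out instead, C3 did not pass (edgeR adjusted p = 0.815, 0.483 and 0.776). Serping1 stood at 94.8, 378, 580 and 312 against 52.3, 432, 594 and 429.9, with a log2 fold change of -0.03 ± 0.14 (edgeR adjusted p = 0.953), and C1ra gave 0.30 ± 0.16 (adjusted p = 0.383). Without the section block no gene passed in this comparison, with 149 of 8359 genes at an unadjusted p under 0.05 in edgeR.

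**Figure D5:**
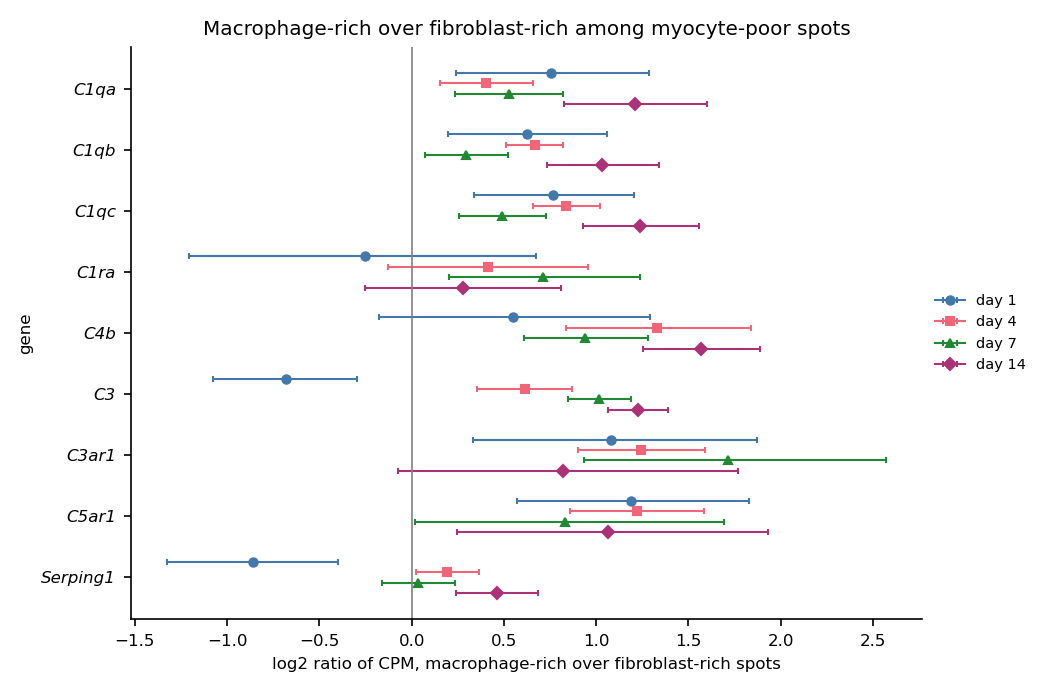
Log2 ratio of CPM in macrophage-rich over fibroblast-rich spots of the myocyte-poor spots, for each gene in each section, with exact 95% intervals from counting. C1qa, C1qb, C1qc, C4b, C3ar1 and C5ar1 lay above 0 in all 4 sections, though the intervals of C4b on day 1 and C3ar1 on day 14 held it. C3 and Serping1 lay below 0 on day 1, as did C1ra with an interval that held 0.

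The other genes of the cascade came from a list of 53 complement genes, of which 33, the 9 genes included, had the UMIs to be tested between myocyte-poor and myocyte-rich spots. Of the other 24, 10 were higher in the myocyte-poor spots, 4 lower and 10 not called, where 27.6% and 25% of all genes tested were higher and lower. The counts of single lists between these spots include the 9 genes. In the classical list 5 of 9 tested genes were higher, namely C1qa, C1qb, C1qc, C4b and C2, and 0 were lower. C1ra, C1rb, C1s1 and C1s2 were not called. C2, the protease partner of C4b, had a log2 fold change of 2.36 ± 0.63 (edgeR adjusted p = 0.00679). It did not pass without the day 7 or the day 14 section. C1s1, the protease partner of C1r, stood at 0.78 ± 0.60 (edgeR adjusted p = 0.295). In the alternative list 2 of 4 were higher, the C3 convertase protease gene Cfb (3.13 ± 0.53, adjusted p = 0.000284) and the properdin gene Cfp (2.28 ± 0.23, adjusted p = 4.52e-06). Of the receptors 6 of 7 were higher, C3ar1 and C5ar1 included. Itgam and Itgb2, which encode the subunits of complement receptor 3, were also among them (3.01 ± 0.39 and 3.22 ± 0.27, edgeR adjusted p = 2.92e-05 and 1.18e-06). Regulators were mixed, with 2 of 9 higher (Clu and Cfi) and 3 lower (Cd59a, Cd59b and Vtn), shares near those of all genes. Cfi did not pass without the day 4 section, Cd59b passed in 9 of 17 fits and Vtn in 11 of 18, and neither passed without the day 1, day 4 or day 7 section. Cd59a, which encodes a membrane inhibitor of the terminal pore, fell by 1.29 on the log2 scale (SE 0.17, edgeR adjusted p = 2.88e-05). In the lectin list 1 of 4 was higher (Colec12) and 1 lower (Colec11), and none of the 7 genes of the terminal pathway reached 100 UMIs. Within the myocyte-poor spots 4 of 18 of these other genes were higher in macrophage-rich spots (Itgam, Itgb2, Cfp and Fcna), where 2.8% of all genes were, and Clu, which encodes clusterin, a regulator of the terminal complex, was lower (-0.74 ± 0.17, edgeR adjusted p = 0.0241). Clu passed in 6 of 13 fits of this comparison, and not without the day 4 or the day 7 section.

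Across the 16 libraries the 9 genes shared much of one pattern, as described by the correlation of log2(CPM + 1). These libraries share sections and the ranking of spots, so no p is given. The C1q chains correlated with each other at 0.97 to 0.99 and C3ar1 with C5ar1 at 0.96, and the lowest correlation was between C3 and C5ar1 at 0.56. Among 4762 genes with at least 1000 UMIs, those most like C1qb were Col1a2 (r = 0.99), Mmp23 (0.99) and Bmp1 (0.99), and those most like C1qc were Mmp23, Col1a2 and Bmp1. Those most like C3 were C1s1 (0.96), Igfbp6 (0.91) and Igfbp4 (0.90), and those most like C4b were Trf (0.94), Gas1 (0.94) and Igfbp4 (0.93). C5ar1 was most like Fcgr2b (0.98), Cd14 (0.98) and Tyrobp (0.98), which are myeloid genes, and C3ar1 most like Loxl2 (0.99), Pld4 (0.98) and Laptm5 (0.98). C1ra was most like Igfbp4 (0.98) and C1qa most like Aebp1 (0.99).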

How the data were processed

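The authors processed the Visium reads with Space Ranger 1.3.0 against mm10, with images aligned by hand, and deposited 1 filtered matrix of raw UMI counts per section (32285 genes). The study then merged the matrices in Seurat 4.1.1, a step that the deposited counts precede. The files hold counts before the later filters of the methods: the removal of tissue-edge spots by hand was not repeated, and the methods' minimum of 1000 UMIs per gene was lowered to 100 so that the receptors could be tested. Here spots with over 1% hemoglobin UMIs were removed, and UMIs were summed per section and group of spots (ties broken by barcode order). Visium captures transcripts by their 3′ ends, so levels were not divided by gene length.

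Spots are not replicates, so sums per section were tested with edgeR 4.0.16 (R 4.3.3, TMM, robust quasi-likelihood, section as a block), with Benjamini-Hochberg adjustment over all genes tested and calls at an adjusted p under 0.05. Replicates are 4 mice at 4 different days, so a p-value measures whether a difference was shared over days. Intervals of levels and ratios (exact, 95%) cover counting error only. Each SE of an edgeR log2 fold change was derived from the test, as its absolute value over the square root of the quasi-likelihood F statistic. Both fits were tested on simulated data with 200 genes set to a log2 change of 1 up or down. The fit over 4 groups of spots recovered 123 of these, with 4 false calls. The fit within the myocyte-poor spots recovered 177, with 8 false calls. The simulated data had the same dispersion for every gene, equal numbers of changes up and down and no shift of all genes. Between the groups of spots 3203 genes were called higher and 2904 lower, so these false-call counts do not carry over to that comparison. Alternatives were DESeq2 1.42.0, total UMIs, other gene and spot filters, other groups of spots and each section left out.

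The 9 genes, the complement list, the marker lists and the tests were chosen with earlier results of these data known. Named genes were the 9 genes, the tested genes of the complement list, the 3 genes most correlated with each of the 9, and the markers, and some genes these rules name are not reported here. Marker lists not given above were those of cardiomyocytes (7 of 7 lower in the myocyte-poor spots), endothelium (2 of 4 lower, 0 higher), smooth muscle (3 of 4 higher), adipocytes (0 of 2 tested called), mesothelium (2 of 3 tested higher), fast skeletal muscle (10 of 10 higher, set by the day 7 section) and hemoglobin (3 of 4 tested lower). Myh6 and Myl2 are among these cardiomyocyte genes and set the ranking of spots, so their direction was fixed in advance. The hemoglobin genes were tested after spots had been removed on the same genes. Of the neutrophil list 3 of 3 tested genes were higher. Gene coordinates are those of GENCODE vM21. The results section of the study dates the earliest heart to day 2, whereas the labels and methods give day 1, the date kept here.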

Additional observations from a re-analysis of the deposited data

Results flagged for a closer look

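In each complement gene given here the log2 ratio of myocyte-poor over myocyte-rich spots, in CPM, was below 0 in at least 1 section and above 0 in at least 1 other, beyond counting error by intervals from counting. With 1 section per day these differences between days were not tested. C3 stood at -0.55 on day 1 and 3.41 on day 7, and Serping1 at -0.70 on day 1 and 2.36 on day 7. C1s1 stood at -0.98 on day 1 and 2.39 on day 14, and Vtn, which encodes vitronectin, at -1.11 and -0.78 on days 1 and 4 and at 0.89 in the last section. The ficolin gene Fcna stood at -1.96 on day 1 and 3.32 on day 14. Cfd, which encodes the protease factor D and is abundant in fat cells, stood at 3.80 on day 1 and 5.57 on day 7, and at -1.47 on day 4 and -3.77 on day 14. Adipocyte markers summed to 152 and 617 CPM in the myocyte-poor spots on days 1 and 7 and to 2.54 and 3.84 on days 4 and 14, and their part in the Cfd values was not tested.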

How the results depend on the processing

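Between myocyte-poor and myocyte-rich spots the 6 called genes kept their direction under every alternative run and passed in each where they were tested, except C4b without the day 14 section. With sections left out, 5 to 9 of the 9 genes were called, 2214 to 3102 genes higher and 2047 to 2845 lower, against 3203 and 2904. With total UMIs 6802 genes were higher and 1233 lower, the center of all genes moved from 0.07 to 0.71 (median log2 fold change), and Cr1l turned from -0.16 to 0.47. With a minimum of 1000 UMIs, under which C3ar1 and C5ar1 were not tested, 1679 were higher and 1548 lower. DESeq2 called 7 of the 9 genes and ranking spots on 5 other cardiomyocyte genes all 9. Within the myocyte-poor spots 234 genes were higher and 80 lower. DESeq2 gave 92 and 17, a minimum of 1000 UMIs 40 and 13 with 3 of 6 tested members of the 9 called, and total UMIs 310 and 36 (89.6% of calls higher against 74.5%). Without the section block no gene passed, so 0 were higher, 0 lower and 0 of the 9 called. With sections left out 139 to 204 were higher, 18 to 90 lower and 5 to 7 of the 9 genes called. C1qa missed without the day 7 section (adjusted p = 0.0659), with a minimum of 1000 UMIs and in DESeq2. With no hemoglobin filter 150 were lower, and with 3 groups of ranked spots and the outer ones compared 211.

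By day, 0 of the 9 genes were highest on day 14 in the myocyte-poor spots, but 2 were with no hemoglobin filter, 7 (and 0 on day 7) in the first of 10 groups of spots, 1 without mitochondrial genes and 2 with TMM-scaled library sizes, which were added once the data had been seen. The log2 ratio of day 14 over day 4 turned from -0.53 for C1qa to 0.036, 1.55 and 0.10 with no hemoglobin filter, in the first of 10 groups and with TMM scaling. For Serping1 it turned from -0.24 to 0.39, 1.69 and 0.39 under these and to 0.14 without mitochondrial genes. For C1qb (-1.3) and C1qc (-0.87) it turned to 0.57 and 1.02 in the first of 10 groups, and for C1ra (0.50) to -0.14 in the first of 3 groups and -0.0424 with spots of at least 1000 UMIs. Per marker UMI, 3 of the 9 genes were highest on day 1, 0 on days 4 and 7 and 6 on day 14, and 1, 2, 5 and 1 in the order of days without Lyz2 and the 3 collagen genes, a setting also added once the data had been seen. The cause was not tested. Between days no paired analysis was possible because each day is 1 mouse; groups of spots were paired within sections by the section block. Depth limits the receptors most, which had 858 and 952 UMIs in all.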

Other observations

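The 1599 spots removed for over 1% hemoglobin UMIs held complement transcripts as well. In the day 14 section, where 655 spots were removed, C3 stood at 585 CPM in them and at 184 in all kept spots, a ratio of 3.18 (exact 95% interval 2.96 to 3.43). C4b stood at 159 against 42.8 (ratio 3.71, 3.20 to 4.29), Serping1 at 238 against 112 (2.12, 1.90 to 2.37) and C1qb at 132 against 61.2 (2.15, 1.84 to 2.5). On day 1 the ratio for C3 was 0.57 (0.43 to 0.75) and that for Serping1 0.62 (0.45 to 0.83), and on day 4 both were near 1 (1.00 and 1.08). C3ar1 on day 7 was lower in the removed spots (0.43, 0.23 to 0.74) while C3 was higher (1.41, 1.29 to 1.53). Counted per spot and not as CPM, C3 gave 0.577, 1.21, 3.05 and 2.89 UMIs per myocyte-poor spot on days 1, 4, 7 and 14, and C4b 0.182, 0.374, 0.790 and 0.885.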
